A study of Mus musculus with 3 samples.

Results

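The cells described here are macrophages of the healing mouse skin wound that carry Lyz1, the gene of P-type lysozyme, on day 14. A barcode counted as one of them when the Day 14 library held at least 1000 UMIs (unique molecular identifiers, each standing for 1 captured transcript) for it and at most 10% of these came from mitochondrial genes. The summed UMIs of 9 macrophage genes (Lyz2, C1qa, C1qb, C1qc, Cd68, Adgre1, Fcgr1, Csf1r and Ms4a7) had to reach 0.8% of the cell, with the fibroblast genes Dcn and Col1a2 under 0.5% and the neutrophil genes S100a8 and S100a9 under 1%. Cells with 3 or more UMIs of Lyve1, Cd163 and Cbr2 (resident-like macrophages) or 2 or more of Slamf7 and Il10 were set aside, and at least 2 Lyz1 UMIs were required. The rule gave 245 Lyz1-positive cells among 16611 Day 14 barcodes and 44693 barcodes in the series. Of 1335 macrophages that met every other criterion, 65 held exactly 1 Lyz1 UMI and 1025 held none, and these Lyz1-zero cells are the reference below.

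Single-cell RNA sequencing (10x Genomics 3' chemistry) was performed on dissociated wounds from the skin of the C57BL/6J strain, with 1 library for each of days 3, 7 and 14. The methods give male mice, 7 to 12 weeks of age, dorsal punch wounds and pooled wound tissue, and no cells were sorted. The design asks how the cells of the wound differ over the course of repair. With 1 library per day and no map from cells to animals no test between days or cell sets was possible, so values carry 95% intervals for counting error alone and are descriptions of these libraries.

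Lysozymes cut the cell walls of bacteria, and the mouse has a pair of neighboring lysozyme genes, of which Lyz2 is used by most macrophages and neutrophils and Lyz1 is best known from Paneth cells of the gut. Retnla encodes RELMα, a secreted protein that macrophages make in response to IL-4 and IL-13 and that is widely used as a sign of alternative activation. Monocytes enter wounds through the chemokine receptor CCR2 and become macrophages there, while resident dermal macrophages carry genes such as Lyve1, Folr2 and Cd163.

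The sequences just before the starts of Lyz1, Lyz2 and Retnla are shown because Lyz1 chose the cells, Lyz2 is its neighbor and paralog and Retnla is the abundant gene that was at least 2-fold higher beside it. They were taken from RefSeq (GRCm38.p6) and run 5′ to 3′ on the strand of the gene. Capitals in Lyz1 and Lyz2 mark bases that differ between them at the same distance from the start, and capitals in Retnla mark the motifs named below.
Lyz1, chr10:117292869-117292998, minus strand: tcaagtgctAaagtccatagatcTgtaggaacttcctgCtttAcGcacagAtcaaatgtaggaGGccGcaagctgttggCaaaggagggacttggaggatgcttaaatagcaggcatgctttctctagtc
Lyz2, chr10:117282273-117282402, minus strand: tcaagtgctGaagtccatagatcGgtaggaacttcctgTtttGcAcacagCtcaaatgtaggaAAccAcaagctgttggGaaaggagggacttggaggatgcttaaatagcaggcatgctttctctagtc
Retnla, chr16:48842359-48842608, plus strand: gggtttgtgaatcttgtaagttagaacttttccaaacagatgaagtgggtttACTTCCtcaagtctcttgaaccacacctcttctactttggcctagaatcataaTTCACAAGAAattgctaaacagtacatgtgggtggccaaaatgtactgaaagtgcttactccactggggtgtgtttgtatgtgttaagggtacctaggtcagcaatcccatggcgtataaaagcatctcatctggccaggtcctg
Of the 130 bases before the start, 120 (92.3%) were the same in Lyz1 and Lyz2, and over 250 bases compared without gaps 152 (60.8%) were. Their genes lie 5522 bases apart on chromosome 10 (117287795 to 117292868 and 117277541 to 117282272). Retnla lies on chromosome 16 (48842609 to 48844461). The letters GGAAGT, the core that ETS factors such as PU.1 can bind, were searched on both strands in the 250 bases before each start, and each of the 3 genes held 1 match. In Lyz1 and Lyz2 it lay at the same place, 100 bases before the start on the opposite strand, and 19.7% of 32851 promoters held it. TTC and GAA with 4 bases between them, the spacing that STAT6 can bind, occurred in Retnla 145 bases before the start and in neither lysozyme gene, against 5.85% of all promoters. TTGCNNCAA, which C/EBP factors can bind, occurred in none of the 3 and in 1.74% of all promoters. These matches are descriptions of the letters only.

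Since the 2 lysozyme transcripts were 92.0% identical when aligned, with a longest shared run of 118 bases, the split of reads between them was examined. In the last 400 bases of the Lyz1 transcript, where a 3' library reads, 15 of 311 windows of 90 bases also occurred in Lyz2. In the 1090 gated macrophages with 0 or 1 Lyz1 UMI, Lyz1 made 0.203% of the Lyz2 count (65 against 31955 UMIs). In the Lyz1-positive cells it made 31.9% (4613 against 14455 UMIs). The rule fixed the direction of this difference. Over all barcodes, which the rule did not choose, Lyz1 made 1.22% of the Lyz2 count on Day 3, 1.35% on Day 7 and 7.63% on Day 14. Lyz2 itself, a gate gene, stood at 10733 CPM (UMIs of a gene per 1000000 UMIs of the set) against 8292 in Lyz1-zero cells.

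The Lyz1 count per cell ran from 2 to 115 UMIs with a median of 11, and the set as a whole held 3425 CPM (3327-3526). At the limit of the rule, 31 cells had exactly 2 UMIs and 570 CPM of Lyz1, and 65 cells just outside had 1 UMI and 218 CPM. Lyz1-positive cells were deeper, with a median of 5033 UMIs and 1648 genes per cell against 3095 UMIs and 1258 genes in Lyz1-zero cells. Depth moved with the sets, and values from reference cells of matched depth and from thinned cells are given below.

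The number of such cells differed between the days. They made up 18.4% of the gated macrophages on Day 14 (245 of 1335, exact binomial interval 16.3-20.5), 3.10% on Day 7 (148 of 4768, 2.63-3.64) and 1.78% on Day 3 (11 of 618, 0.892-3.16). After each cell was thinned to 1000 UMIs, any Lyz1 was left in 16.2%, 3.44% and 3.07% of gated cells in the same order of days. Day 14 stood above both earlier libraries by more than the counting error, and the intervals of Days 3 and 7 overlapped. Of all cells passing the depth and mitochondrial limits, the shares were 1.77% (1.56-2.01), 0.782% (0.662-0.918) and 0.283% (0.141-0.505) in that order, and here the intervals of Days 3 and 7 did not overlap. The shares of the gate also depend on the rule. Its limit on Slamf7 and Il10 took the gate from 2134 to 1335 cells on Day 14 and from 5497 to 4768 on Day 7. Without the limits on Lyve1, Cd163, Cbr2, Slamf7 and Il10, 374 of 2686 macrophages were Lyz1-positive on Day 14 and 232 of 6738 on Day 7. With 1 library per day, day and library cannot be told apart. Between the Day 7 and Day 14 libraries 111 barcodes were shared, 3 of them Lyz1-positive cells of Day 14, and 19 were shared between Days 3 and 14, none of them Lyz1-positive.

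Retnla had the highest level among the genes that were at least 2-fold higher in Lyz1-positive cells. It reached 11809 CPM (11626-11994) on Day 14 against 2215 CPM (2166-2265) in Lyz1-zero cells, a log2 ratio of 2.41 (2.38-2.45). On Day 7 the levels were 2843 and 149 CPM, a log2 ratio of 4.26 (4.17-4.35). Both sets held more Retnla on Day 14 than on Day 7. Of the Day 7 Lyz1-positive cells 15 (10.1%) were called doublets, against 4.16% of Lyz1-zero cells and 3 of 245 on Day 14. When Lyz1-zero cells of Day 14 were drawn to the depth of the Lyz1-positive cells (233 cells), the log2 ratio was 1.38. It was 2.91 after thinning. The same draw on Day 7 gave 9.25, against 146 reference cells with 3 Retnla UMIs in all. When cells with any Dcn or Col1a2 UMI were left out, 8 Lyz1-positive cells remained on Day 14 and 4 on Day 7, with log2 ratios of 9.82, against 1 Retnla UMI in 30 reference cells, and 2.72.

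Retnla was for the most part higher in cells with more Lyz1. On Day 14 it stood at 2215 CPM in cells with no Lyz1 UMI, 3883 CPM with 1, 6571 CPM with 2, 6147 CPM with 3, 9905 CPM with 4 to 9, 13582 CPM with 10 to 19, 13133 CPM with 20 or more but under 50 and 15229 CPM with 50 or more. The order did not hold between 2 and 3 UMIs or between the bins from 10 and from 20, whose intervals overlapped. Depth was not matched between the bins. On Day 14 the median was 3095 UMIs in cells with no Lyz1 UMI and 7487.5 UMIs in cells with 50 or more. On Day 7 it stood at 149 CPM with no Lyz1 UMI, 880 CPM with 1, 3084 CPM with 4 to 9 and 3931 CPM with 10 to 19. The 11 Day 7 cells with 20 to 49 Lyz1 UMIs did not continue the order either, with 2501 CPM.

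**Figure D1:**
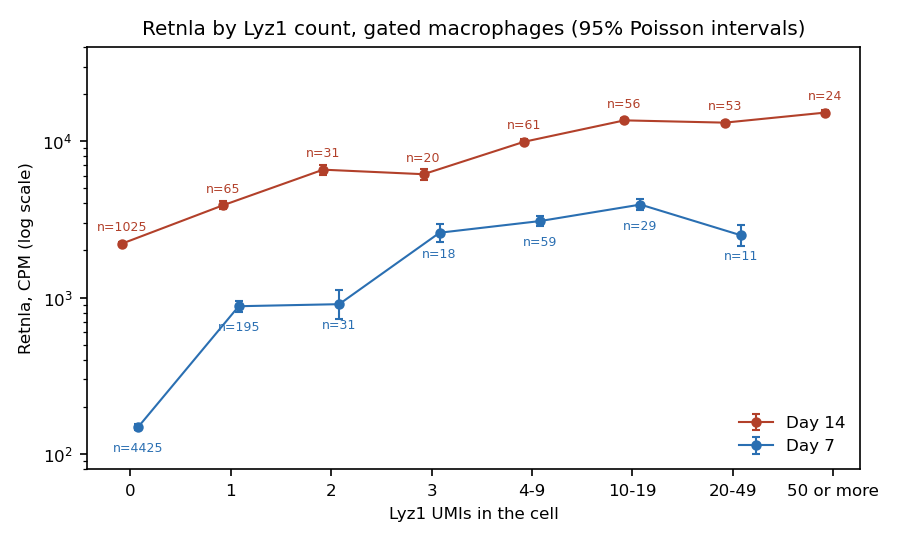
Retnla in CPM (log axis) by the number of Lyz1 UMIs in the cell, for gated macrophages of Day 14 and Day 7. Points are sums over the cells counted beside them and bars are 95% Poisson intervals. Depth was not matched between bins. Day 14 runs from 2215 CPM at no Lyz1 to 15229 CPM at 50 or more UMIs, and lies above Day 7 in every bin that both days fill.

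Cell by cell, the name Lyz1 Retnla macrophage did not hold for every cell. On Day 14, 182 of 245 Lyz1-positive cells (74.3%, 68.3-79.6) had any Retnla UMI, and 151 (61.6%) had 10 or more. Those 151 cells carried 99.4% of the Retnla UMIs of the set, and the largest cell held 568. The 63 cells (25.7%) outside the 182 had no Retnla UMI. Of the 253 gated macrophages with 10 or more Retnla UMIs, 59.7% were Lyz1-positive. On Day 7 only 31 of 148 Lyz1-positive cells (20.9%) had 10 or more, and 102 (68.9%) had none.

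In the reference a smaller share of cells carried Retnla. Among the 1025 Lyz1-zero cells 155 (15.1%) had a Retnla UMI. The 89 cells with 10 or more (8.68%) carried 98.0% of the Retnla UMIs of the set, and the remaining cells stood at 53.5 CPM. Fibroblasts of the same library (cells with at least 2% Dcn and Col1a2 and under 0.1% of the macrophage genes), which serve as a guide to free RNA and whose limit on macrophage genes leaves out the fibroblasts with most macrophage RNA, held a Retnla UMI in 6.56% of cells at a median depth of 10712 UMIs, with a summed level of 7.38 CPM. After thinning, the shares with Retnla were 64.1% in Lyz1-positive cells, 12.0% in Lyz1-zero cells and 0.788% in fibroblasts.

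Because each gene occurred without the other, the Day 14 gate was divided by both. This division was made after the values were seen and is given as a description. Cells with Lyz1 and 10 or more Retnla UMIs (151 cells) and cells with no Lyz1 but 10 or more Retnla UMIs (89 cells) were alike in depth, with medians of 5804 and 6137 UMIs. Cells with Lyz1 and no Retnla (63 cells) had a median of 3706 UMIs, and cells with neither (870 cells) 2909 UMIs.

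Several genes that set Lyz1-positive cells apart were also high in cells with Retnla and no Lyz1. Ear2, a secreted ribonuclease of the eosinophil-associated family, stood at 1178 CPM with both genes, 1197 CPM with Retnla alone, 427 CPM with Lyz1 alone and 116 CPM with neither. Fn1, fibronectin, stood at 2348, 1849, 423 and 172 CPM in the same order. Cd226, an adhesion receptor, stood at 208, 191, 38.5 and 7.39 CPM. For these 3 genes the cells with Lyz1 alone lay between the Retnla-bearing cells and the cells with neither.

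Apoe and C1qa were lower in Lyz1-positive cells and showed the same arrangement in reverse. Apoe, the lipid carrier, stood at 643 CPM with both genes, 1143 CPM with Retnla alone, 10286 CPM with Lyz1 alone and 15455 CPM with neither. C1qa, the complement subunit, stood at 831, 1087, 2958 and 3435 CPM, and it belongs to the gate. Cd74, the invariant chain of MHC class II, stood at 15691, 14862 and 15906 CPM in the 3 sets with either gene and at 9285 CPM with neither. Ccr2 stood at 746, 706 and 639 CPM against 309 CPM. On Day 7 both were highest in the sets with Retnla, Cd74 at 7923 and 7405 CPM against 3530 CPM with Lyz1 alone and 2492 CPM with neither, and Ccr2 at 1334 and 1159 CPM against 441 CPM in each of the others.

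Over the 19 other genes named as highest in Lyz1-positive cells, 18 were at least 2-fold higher with Retnla alone than with neither gene, with a median log2 ratio of 3.17. With Lyz1 alone 16 of the 19 were at least 2-fold higher than with neither, with a median of 1.60. Some of these rest on few UMIs in the 63 cells with Lyz1 alone. Dcstamp had 4 UMIs there and Qpct 5, and both intervals held 0, while those of Ear2, Fn1, Cd226, Unc119 and F10 did not. No share over all genes was counted for the comparisons between these sets. Between cells with both genes and cells with Retnla alone, 0 of 19 differed by 2-fold, 16 lay above 0 and the median was 0.29. Dcstamp (0.98, 0.31-1.70), F10 (0.75, 0.20-1.33) and Fn1 (0.35, 0.24-0.45) were higher with both genes and had intervals clear of 0. The 10 named lower genes differed more. With both genes 5 of the 10 were at least 2-fold lower than with Retnla alone (median -1.18), most of them on few UMIs, and Apoe was lower by a log2 ratio of -0.83 and Pf4 by -0.83 (-1.11 to -0.55). With Lyz1 alone all 10 were at least 2-fold lower than with neither (median -1.99). The 19 genes were themselves chosen on Lyz1 in these cells. On Day 7, which did not choose them, the medians were 2.75 with Retnla alone and 1.06 with Lyz1 alone over cells with neither, and with Lyz1 alone 10 of the 19 were at least 2-fold higher and 1 at least 2-fold lower. Between both genes and Retnla alone 2 of the 19 were at least 2-fold higher on Day 7, 1 was at least 2-fold lower and 5 lay below 0, and Dcstamp had no UMI with both and 3 with Retnla alone. Of the 10 lower genes 3 were at least 2-fold lower with Lyz1 alone on Day 7 and 2 lay above 0, with a median of -0.68.

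**Figure D2:**
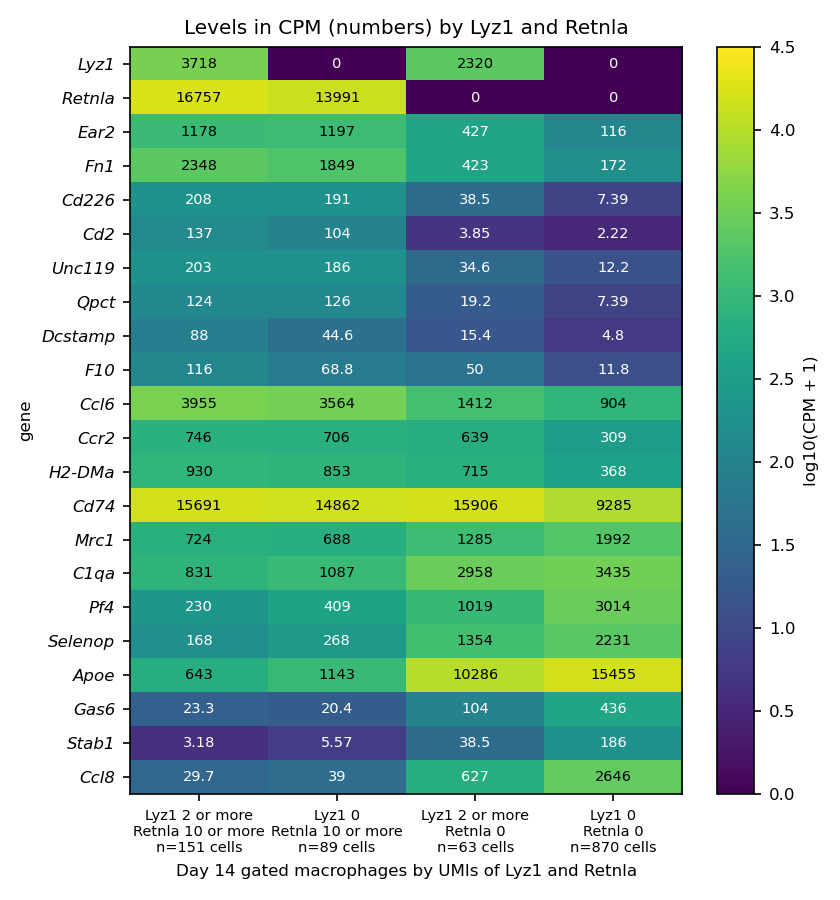
Levels of 22 genes in Day 14 gated macrophages divided by Lyz1 and Retnla UMIs. Numbers are CPM summed over the cells of each column and color is log10(CPM + 1). Among the columns with Retnla, Ear2 is at 1178 and 1197 CPM with and without Lyz1 while Apoe is at 643 and 1143 CPM, and the column with Lyz1 alone lies nearer to the cells with neither for Apoe (10286 and 15455 CPM).

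Clustering gave a similar picture. The 1335 gated cells were clustered without the genes of the rule and without Retnla, which left 6 clusters. Cluster 1 (314 cells, led by Cst6, Ear2, Fn1 and Tnip3) held 171 of the 245 Lyz1-positive cells (69.8%), and Lyz1-positive cells made up 54.5% of it (48.8-60.1). It also held 128 Lyz1-zero cells, 12.5% of that set. Cluster 5 (57 cells, led by cell cycle genes together with Rgs5 and Igfbp3) was 26.3% Lyz1-positive, and cluster 0 was 16.3%. In clusters 2, 3 and 4 the share was 3.26%, 4.67% and 6.59%. Retnla, left out of the clustering, stood at 11978 CPM in cluster 1 and 6913 CPM in cluster 5, and at 855 CPM or less in the others.

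Within cluster 1 Lyz1-positive and Lyz1-zero cells were also compared. Retnla stood at 14156 CPM in the 171 Lyz1-positive cells and 9171 CPM in the 128 Lyz1-zero cells, a log2 ratio of 0.63 (0.58-0.67). Of the 19 other named higher genes 1, Pianp, was at least 2-fold higher (1.09, 0.48-1.73), 17 lay above 0 with a median of 0.26, and for 12 of the 19 the interval held 0. Ear2 stood at 1171 and 1226 CPM. Of the 10 named lower genes 8 were at least 2-fold lower and 9 lay below 0 (median -1.33), with at most 28 UMIs each in the Lyz1-positive cells. For 8 of the 10 the interval held 0, and those of Ccl8 (28 against 40 UMIs, -1.07, -1.82 to -0.34) and Nxpe5 (-3.88, -9.32 to -1.07) did not. The named genes were chosen on their ratios in sets that include these same cells. The counts within cluster 1 were thus partly fixed in advance and are descriptions, and no share over all genes was counted there.

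**Figure D3:**
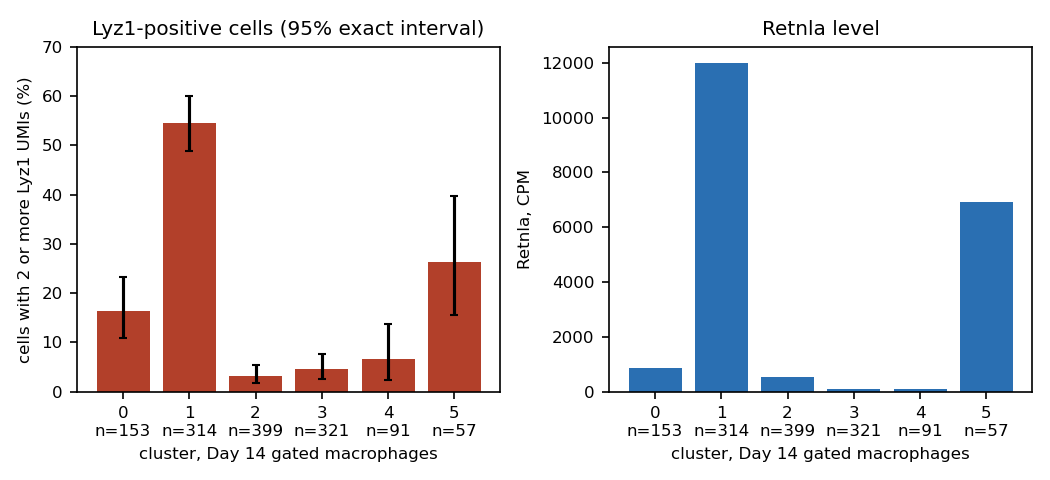
Left, percentage of cells with 2 or more Lyz1 UMIs in each of 6 clusters of Day 14 gated macrophages, with 95% exact binomial intervals. Right, summed Retnla CPM of the same clusters. Cluster 1 holds the highest share (54.5%) and the highest Retnla (11978 CPM), followed by cluster 5 (26.3% and 6913 CPM).

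Across all genes, Lyz1-positive and Lyz1-zero cells of Day 14 were compared as summed counts for the 2848 genes with at least 50 CPM in 1 set and 10 UMIs in each, outside the rule. At least 2-fold higher in Lyz1-positive cells were 73 genes (2.56%), and at least 2-fold lower were 173 (6.07%), with a median log2 ratio of -0.03. With Lyz1-zero cells of matched depth the counts were 32 and 101 and after thinning 135 and 105. In the 8 Lyz1-positive cells with no Dcn or Col1a2 UMI they were 69 and 7. The limit of 10 UMIs in each set leaves out genes low in a set that holds few UMIs, as the 8 cells and the thinned cells do. No share of genes tested stands beside these counts, so the balance between higher and lower genes cannot be compared across settings. The rule chose the cells on Lyz1 in this same library, so the counts describe the set and support nothing further.

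The gene with the highest log2 ratio was Dcstamp, a membrane protein needed for fusion of macrophages and osteoclasts, with 96 UMIs in Lyz1-positive and 39 in Lyz1-zero cells (2.67, 2.11-3.24). Cd2, an adhesion molecule, followed with 138 and 64 UMIs (2.47). F10, which encodes coagulation factor X, had 127 and 71 UMIs (2.20), Cd226 224 and 127 UMIs (2.18) and Fn1 2548 and 1544 UMIs (2.09). Also among the leading 20 were Net1 (2.15), an exchange factor for small GTPases, Rras2 (1.98), a Ras-like GTPase, Unc119 (1.90), a lipid-binding trafficking protein, and Chn2 (1.84), which acts on Rac.

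Of enzymes the leading 20 held Mthfd1 of folate metabolism (1.96), Upb1 of pyrimidine breakdown (1.96) and Qpct, which forms pyroglutamate ends on peptides (1.78). The rest were H2-DMb2 of MHC class II peptide loading (1.89), Prelid2 (1.79), Rab11fip1 of recycling endosomes (1.78), Ear2 (1.75), the homeodomain protein Hopx (1.69), the actin-binding Coro2a (1.68) and Pianp (1.68). Ear2 is one of several near-identical family members and its count can include theirs. At matched depth 15 of the 19 genes other than Retnla stayed past 2-fold (median 1.16), and Ear2 (0.80), Upb1 (0.91), Unc119 (0.98) and Coro2a (0.99) did not.

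The 10 genes with the lowest ratios included scavenger receptors and chemokines. Stab1, a scavenger receptor, had 13 UMIs in Lyz1-positive and 537 in Lyz1-zero cells (-4.00, -4.92 to -3.22). Cd38, an ectoenzyme that consumes NAD, had 10 and 306 UMIs (-3.57), and Ccl8, a chemokine of dermal macrophages, 264 and 7762 UMIs (-3.51). The others were Sh3bp5 (-3.48), Gas6, a bridge between dying cells and TAM receptors (-3.11), Nxpe5 (-3.06), Gpr183, an oxysterol receptor (-3.05), Spp1, osteopontin (-3.01), Msr1, a scavenger receptor (-2.96), and the chemokine Ccl12 (-2.94).

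**Figure D4:**
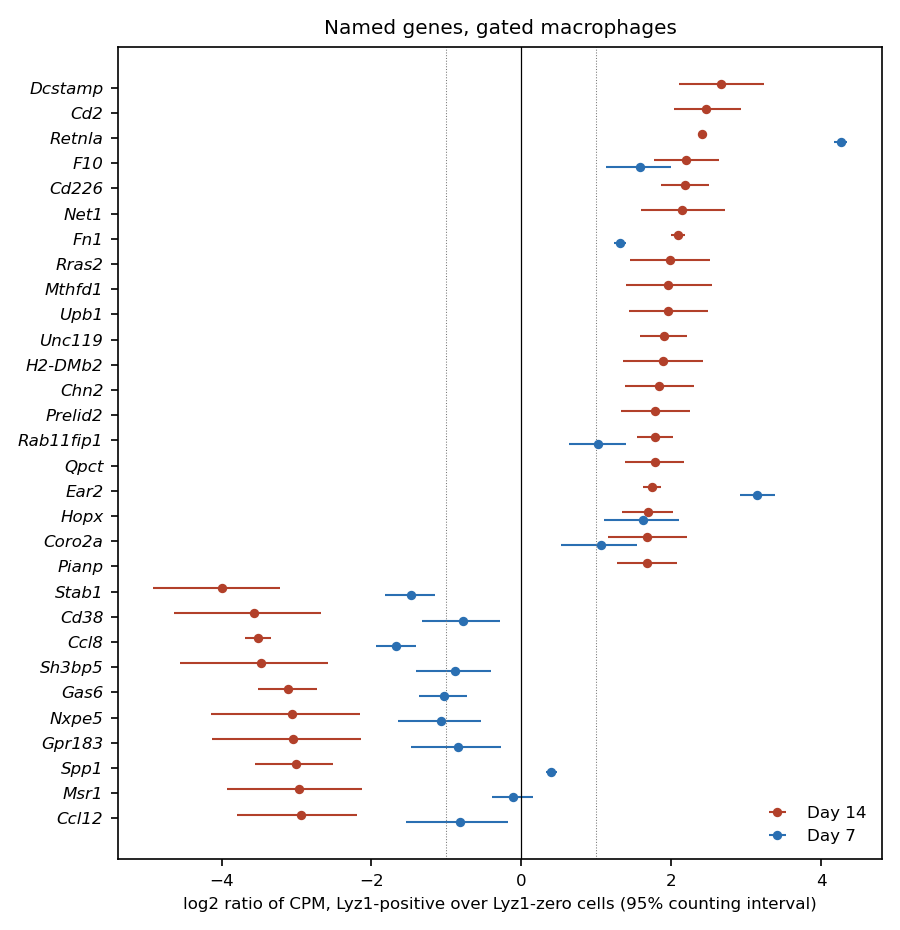
Log2 ratio of CPM between Lyz1-positive and Lyz1-zero gated macrophages for the 20 highest and 10 lowest genes of Day 14, with 95% counting intervals; dotted lines mark 2-fold. Day 7 values are drawn for the 17 genes that passed the limits on that day, and of these only Spp1 (0.40) lies on the other side of 0. A gene under 50 CPM in either set of Day 7 could pass only by being higher in the other set. For such genes the limit fixed the side of 0, so the shared sides are a description.

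Day 7 gave a library in which these genes had not been chosen. There 31 of 2948 genes (1.05%) were at least 2-fold higher and 42 (1.42%) at least 2-fold lower in the 148 Lyz1-positive cells. Of the 73 Day 14 higher genes 46 passed the limits on Day 7. All 46 lay above 0 and 17 at 2-fold, against 1259 above 0 among all 2567 genes measured on both days. Of the 173 lower genes 154 passed, 144 lay below 0 and 24 at 2-fold. A gene under 50 CPM in 1 set of Day 7 could pass only by being higher in the other set. For such genes the limit fixed the side of 0, so these counts are descriptions. Ear2 (3.15 on Day 7 against 1.75) and Retnla were further apart on Day 7, whereas Fn1 (1.32 against 2.09), Stab1 (-1.47 against -4.00) and Apoe (-0.93 against -2.24) were closer. Spp1 stood at a log2 ratio of 0.40 on Day 7 and -3.01 on Day 14. Across the 2567 genes, which share cells and depth within each library and are not replicates, Pearson's r of the ratios was 0.69 and Spearman's coefficient 0.66. Between Days 14 and 3 they were 0.26 and 0.20 over 1754 genes.

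On Day 3 the gate held 11 Lyz1-positive cells, of which 2 with 50 or more Lyz1 UMIs gave 55.9% of all UMIs and 97.1% of those of Retnla. The Retnla log2 ratio was 6.82 with these cells and 2.91 (1.52-4.06) without them, resting on 7 UMIs. Of 1942 genes 219 (11.3%) were at least 2-fold higher and 73 (3.76%) at least 2-fold lower. Ear2 and Fabp4 had no UMI outside the 2 cells, so the Day 3 values describe a few cells. Of the Day 14 higher genes 33 of 36 measured on Day 3 lay on the same side, and of the lower genes 54 of 92, with 10 past 2-fold the other way, where 931 of all 1754 genes measured on both days (53.1%) lay above 0. To be measured a gene needed 10 UMIs in the 11 Lyz1-positive cells, which held 116747 UMIs in all. The limit favored genes high in these cells, so the counts of sides were partly fixed by it.

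Genes of alternative activation were found on both sides. The counts of this and the following lists stand beside 2.56% higher and 6.07% lower among all genes. Of 24 genes of alternative activation 12 passed the limits, 3 were at least 2-fold higher (Retnla, Ear2 and Fn1) and 3 at least 2-fold lower, with a median log2 ratio of 0.42 against -0.03 over all genes. Those lower were Ccl8, the mannose receptor Mrc1 (868 against 1768 CPM, -1.03) and the lectin Clec10a (71.3 against 198 CPM, -1.48). At matched depth Mrc1 was at -0.65 and Clec10a at -0.74, and Mrc1 was at 0.19 in the 8 cells with no Dcn or Col1a2 UMI. Mgl2, another lectin, was at 0.58. Arg1, the arginase of alternatively activated macrophages, had no UMI in Lyz1-positive cells and 6.92 CPM in Lyz1-zero cells, and the chitinase-like Chil3 had 1.49 and 13.3 CPM. The other resistin-like genes, Retn, Retnlb and Retnlg, had no UMI in either set.

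In the IL-4 and IL-13 receptor pathway 7 of 13 genes passed, with 1 at least 2-fold higher and 1 at least 2-fold lower and a median of 0.17, where 2.56% of all genes were higher and 6.07% lower. The higher gene was Irf4, a transcription factor of alternative activation (97.3 against 42.9 CPM, 1.18, 0.83-1.53), and the lower was Il4ra, the shared receptor chain (39.4 against 102 CPM, -1.37). At matched depth they were at 0.89 and -1.04, and Il4ra was at 0.09 with no Dcn or Col1a2 UMI. Stat6 was too low to pass, at 37.9 and 42.9 CPM.

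MHC class II genes were higher by less than 2-fold for the most part. Of 14 genes 9 passed, 1 (H2-DMb2) was at least 2-fold higher and none lower, with a median of 0.61, against 2.56% higher and a median of -0.03 among all genes. Cd74 stood at 15689 against 10285 CPM (0.61), H2-Aa at 11029 against 7748 CPM (0.51) and H2-DMa, a peptide loader, at 864 against 448 CPM (0.95). In the 8 cells with no Dcn or Col1a2 UMI Cd74 was at -0.35. On Day 7 the ratios of these genes were 0.92, 0.83 and 1.14.

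Of the resident-like macrophage genes outside the rule 12 passed and 10 were at least 2-fold lower, with none higher and a median of -2.09, against 6.07% lower among all genes. Folr2, a folate receptor, stood at 36.4 against 210 CPM (-2.53), Pf4, a chemokine, at 419 against 2541 CPM (-2.60), Selenop, a selenium carrier, at 434 against 1912 CPM (-2.14) and Igf1 at 83.2 against 343 CPM (-2.04). Wfdc17 (-0.01) and F13a1 (-0.55) did not reach 2-fold. The rule caps Lyve1, Cd163 and Cbr2 at the same number of UMIs in both sets, which is a lower share of UMIs in the deeper Lyz1-positive cells, and Cbr2 stood at 21 against 384 UMIs. Among transcription factors 23 of 30 passed, 2 were at least 2-fold higher, namely Irf4 and Bhlhe40 (163 against 60.2 CPM, 1.44), and 5 at least 2-fold lower, with a median of -0.47. The lower ones included Maf (-2.01), a regulator of mature macrophages, Tcf4 (-1.88), Irf8 (-1.65) and Id3 (67.6 against 135 CPM). At matched depth Irf4 (0.89), Bhlhe40 (0.82) and Id3 (-0.82) fell under 2-fold, while Maf, Tcf4 and Irf8 did not.

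Of 21 monocyte genes 11 passed, 1 was at least 2-fold higher (Ear2) and 2 lower, with a median of -0.55, against 2.56% higher and 6.07% lower among all genes. Ccr2, the receptor for entry, stood at 734 against 376 CPM (0.96), and Ly6c2, the surface antigen of inflammatory monocytes, at 8.91 against 53.0 CPM (-2.57). Plac8 was at -2.54. At matched depth Ear2 (0.80) and Plac8 (-0.89) fell under 2-fold and Ly6c2 was at -1.58. Cluster 4, led by Plac8 and Ly6c2, held 81 of the Lyz1-zero cells (7.90%). Plac8 was at -0.33 over resident-like cells and at -0.28 over cells with Slamf7 and Il10. Ly6c2 was higher than in resident-like cells (lower bound 2.34) and at -1.09 over cells with Slamf7 and Il10. Cx3cr1, the fractalkine receptor, stood at 14.1 against 86.2 CPM (-2.61) among chemokine receptors, of which 6 of 8 passed and it alone reached 2-fold.

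Of 20 lipid-handling genes 18 passed, 2 were at least 2-fold higher and 7 at least 2-fold lower, with a median of -0.73, against 2.56% higher and 6.07% lower among all genes. Lpl, lipoprotein lipase, stood at 1710 against 595 CPM (1.52) and Fabp4, a fatty acid carrier, at 152 against 48.7 CPM (1.64). Apoe (2805 against 13273 CPM, -2.24), the lipid receptor Trem2 (-1.58), Gpnmb (-2.29), the cholesterol exporter Abca1 (-1.37), Cd63 (-1.75), Ctsl (-1.43) and Spp1 were lower. Of these only Lpl, Fabp4, Apoe, Abca1 and Cd63 lay on the same side of 0 on Day 7, where Trem2 was at 0.00 and Gpnmb, Ctsl and Spp1 were above 0.

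Of the inflammatory cytokines and chemokines outside the rule 18 passed, 1 was at least 2-fold higher and 6 at least 2-fold lower, with a median of -0.48. Ccl6, the higher gene, stood at 3364 against 1362 CPM (1.31, but 0.84 at matched depth) and Ccl9 at 886 against 463 CPM (0.94). Ccl7 (-2.17), Ccl12, Ccl4 (-1.88), Osm (-1.37), Ccl3 (-1.23) and Cxcl16 (-1.03) were lower, and Il1b stood at 845 against 702 CPM (0.27, but -0.32 in the 8 cells with no Dcn or Col1a2 UMI). At matched depth Osm (-0.96), Ccl3 (-0.83) and Cxcl16 (-0.80) fell under 2-fold, while Ccl7, Ccl12 and Ccl4 did not. C-type lectins (13 of 22 passed, 1 higher and 4 lower), complement (7 of 13, 1 and 3), matrix and growth factor genes (16 of 24, 2 and 4), lysosomal genes (11 of 17, 0 and 2), heme and iron genes (7 of 11, 0 and 2), the Ms4a family (4 of 10, 0 and 4) and interferon-stimulated genes (6 of 14, 0 and 1) had medians between -1.23 and 0.07, beside 2.56% higher and 6.07% lower among all genes. Among macrophage genes outside the rule 15 of 16 passed, 0 were higher and 6 lower. None of the 5 cell cycle genes that passed reached 2-fold. Of all listed genes outside the rule 12 were at least 2-fold higher and 51 at least 2-fold lower, and at matched depth 5 and 37 of these were. Those higher genes that fell under 2-fold were Ear2, Irf4, Itgax, Ccl6, Clec4b1 (1.03 to 0.52), Ecm1 (1.03 to 0.97) and Bhlhe40 (1.44 to 0.82).

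Markers of other cells differed by type. Of 13 dendritic cell markers 3 passed and all 3 were higher in Lyz1-positive cells, 1 of them by 2-fold, with a median of 0.95, against 2.56% higher and a median of -0.03 among all genes. The list summed to 256 against 168 CPM. They were Batf3 (102 against 53.0 CPM, 0.95), Itgax (70.5 against 34.3 CPM, 1.04) and Cd209a (53.5 against 32.9 CPM, 0.70). Itgax and Cd209a reached the limit of 50 CPM only in Lyz1-positive cells, so they could pass only by being higher there. The limit thus fixed their side of 0, and the count of higher markers and its median are descriptions. Batf3 reached the limit in both sets. Flt3, Xcr1 and Clec9a were the 3 of the 13 markers with no UMI in Lyz1-positive cells. Cd209a reached 940 CPM in cells of the dendritic gate, which were themselves chosen on Flt3, Zbtb46 and Cd209a. Batf3 was higher in Lyz1-positive cells than in that gate (31.9 CPM, log2 ratio 1.68, 1.24-2.15), and Itgax stood at 66.5 CPM there (0.09, -0.32 to 0.48). Itgax, which dendritic cells and some macrophages share, was at 0.32 at matched depth. Eosinophil markers summed to 0.743 CPM, with Epx and Prg2 at 0, mast cell and basophil markers to 0 CPM, T cell markers to 2.23 CPM and endothelial markers to 12.6 CPM. Neutrophil markers summed to 14.9 CPM with Ly6g at 0, against 45.2 CPM in Lyz1-zero cells. B cell markers summed to 82.4 against 184 CPM, most of it Ighm, with Cd79a and Ms4a1 at 0. Keratinocyte markers summed to 126 against 321 CPM and fibroblast markers to 3651 against 4987 CPM, both lower in Lyz1-positive cells. A Col1a1 UMI was present in 100% of Lyz1-positive and 98.8% of Lyz1-zero cells. Leaving out cells with a keratin UMI gave 80 higher and 179 lower genes, and the 8 cells with no Dcn or Col1a2 UMI gave 69 and 7.

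Lyz1-positive cells were also set beside other Day 14 cells. The set of resident-like cells and the set of cells with Slamf7 and Il10 shared some cells. Of the 19 named higher genes other than Retnla, 19 were at least 2-fold higher than in resident-like cells, 19 than in cells with Slamf7 and Il10, 14 than in the dendritic gate and 12 than in the 65 gated cells with 1 Lyz1 UMI. Over the last set H2-DMb2 (0.17), Hopx (0.24), Rras2 (0.41), Unc119 (0.49), Cd226 (0.83), Ear2 (0.89) and Pianp (0.91) did not reach 2-fold, and over the dendritic gate H2-DMb2 was at -0.25. The 10 named lower genes were at least 2-fold lower than in each macrophage set, and 1 of the 10 than in the dendritic gate. All of the named genes were chosen on their ratios in these same Lyz1-positive cells. The counts were thus partly fixed in advance and only describe the set, and no share over all genes stands beside them. Retnla stood at 1258 CPM in the 552 resident-like cells (log2 ratio 3.23, 3.18-3.29), 1496 CPM in the 1011 cells with Slamf7 and Il10 (2.98, 2.94-3.02) and 50.5 CPM in the 288 cells of the dendritic gate (7.87). Fn1 was at 76.3, 277 and 511 CPM in these sets. Ear2 was at 25.7 and 170 CPM in the macrophage sets but at 541 CPM in the dendritic gate, so that the ratio there was 0.89 (0.77-1.00). Ccr2 was at 177, 302 and 238 CPM against 734 CPM.

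**Figure D5:**
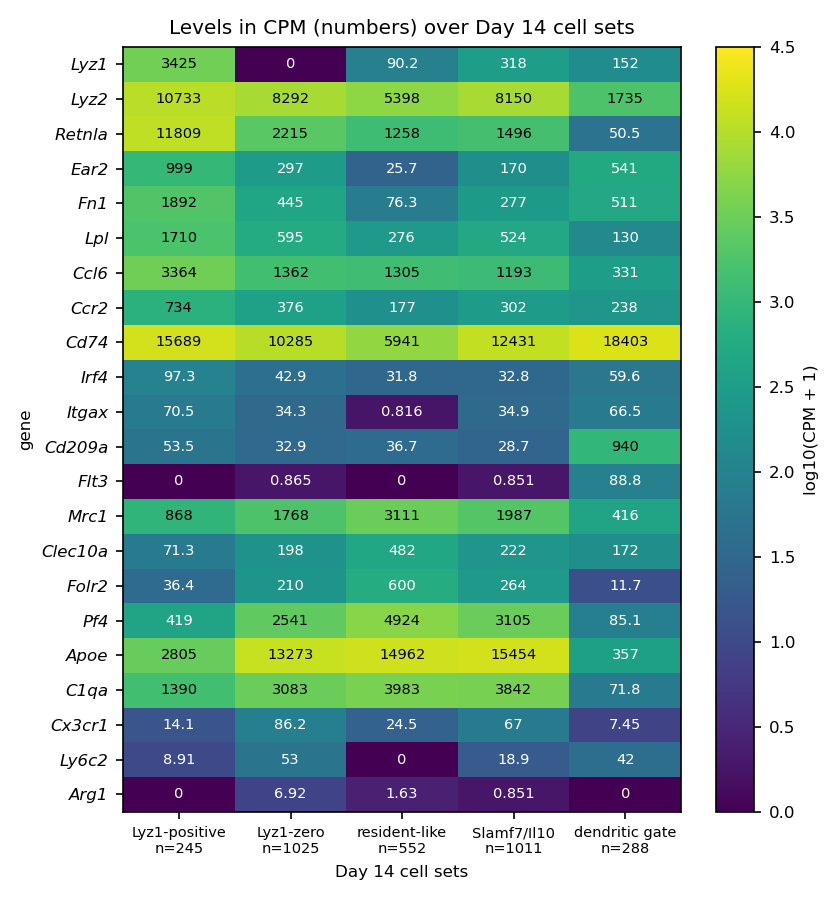
Levels of 22 genes in Lyz1-positive cells and in 4 other sets of Day 14 cells. Numbers are summed CPM and color is log10(CPM + 1). Retnla (11809 CPM), Fn1 (1892 CPM) and Ccr2 (734 CPM) are highest in the Lyz1-positive column, Flt3 and Cd209a, which chose the dendritic gate, are highest there, and Apoe is lowest in the dendritic gate followed by the Lyz1-positive cells.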

How the data were processed

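The deposited files were gene-by-barcode tables of raw UMI counts, 1 per library, which the authors made from 10x Genomics 3' libraries. The submitters' processing notes name Cell Ranger 6.0.0 and mm10, while nothing used here names the annotation release or how cells were called. Ensembl identifiers were paired with symbols for 32158 of 32285 genes. Day 14 barcodes held 112713257 UMIs in all.

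Cells were selected by the limits given in the report, and UMIs were summed over cells and scaled to CPM. Intervals were exact Poisson (CPM), Clopper-Pearson (shares) and conditional binomial (ratios), all at 95% and for counting error only. The ratio intervals were run on simulated Poisson counts, which hold the same assumption. That check therefore does not cover the spread between cells. Since each day is 1 library, no test was made, and a gene was counted as higher or lower past 2-fold. The named genes were the 20 highest and 10 lowest Day 14 log2 ratios among genes with at least 50 CPM in 1 set and 10 UMIs in each, without genes of the rule, mitochondrial genes or ribosomal protein genes. Genes of 29 lists were counted in the same way. The cells, lists and alternatives were chosen with earlier results of these data known.

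Doublets were scored per library against simulated doublets and kept, with their removal as an alternative. Thinning drew 1000 UMIs per cell without replacement, so no gated cell was left out. Clustering used Scanpy 1.11.5 with 2000 variable genes, 30 components, 15 neighbors and a Leiden resolution of 0.6. The dendritic gate held cells with at least 3 UMIs of Flt3, Zbtb46 and Cd209a and under 0.8% of the 9 macrophage genes. An item withheld from this text is not reported here. Python 3.11.15 with NumPy 2.4.6 and SciPy 1.17.1 was used.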

Additional observations from a re-analysis of the deposited data

Results flagged for a closer look

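For 4 of the named or listed genes the log2 ratio between Lyz1-positive and Lyz1-zero cells was past 2-fold in opposite directions on Day 14 and Day 3, and the difference between days was not tested. Over all genes measured on both days this held for 10 of the Day 14 lower and 1 of the higher genes. The Day 3 set was 11 cells, of which 2 gave 55.9% of the UMIs. Gpnmb, a glycoprotein of lipid-laden macrophages, was at 3.12 on Day 3 and -2.29 on Day 14, and all of its Day 3 UMIs came from those 2 cells. Ctsl, cathepsin L, was at 1.73 on Day 3 and -1.43 on Day 14, and at 0.39 on Day 3 without the 2 cells. Clec10a was at 1.42 on Day 3 and -1.48 on Day 14, and Gdf15, a stress-induced cytokine, at 1.70 and -1.13. Without the 2 cells these stood at 2.43 (1.59-3.17) and 1.78 (0.84-2.59) on Day 3.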

How the results depend on the processing

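No paired analysis was possible because each day is 1 library and the labels give no replicate numbers. The 245 Lyz1-positive cells of Day 14 became 374 without the limits on Lyve1, Cd163, Cbr2, Slamf7 and Il10, and 8 when no Dcn or Col1a2 UMI was allowed. Retnla stayed higher in Lyz1-positive cells of both days under every alternative run. Its Day 14 log2 ratio of 2.41 was 2.23 with at least 1 Lyz1 UMI, 2.53 with at least 4, 2.30 with at most 5% mitochondrial UMIs and also with at least 2000 UMIs per cell, and 2.72 without the limits on the other macrophage states. It was 2.95 as the mean CPM per cell, 2.91 after thinning, 2.50 when scaled by the median of ratios and 1.38 against 233 reference cells of matched depth. With no Dcn or Col1a2 UMI it was 9.82, against 30 reference cells with 1 Retnla UMI. The Day 7 ratio of 4.26 was 3.62 with at least 1 Lyz1 UMI, 4.46 with at least 4, 4.09 with at least 2000 UMIs, 3.65 without the limits on other states, 4.72 as the mean per cell and 4.67 after thinning. It was 2.72 with no Dcn or Col1a2 UMI (4 cells) and 9.25 at matched depth, where the 146 reference cells held 3 Retnla UMIs. The 73 higher and 173 lower genes became 135 and 105 after thinning, 32 and 101 at matched depth, 155 and 332 with a limit of 20 CPM and 238 and 375 with none. With no Dcn or Col1a2 UMI 69 were higher and 7 lower. Scaling by the median of ratios gave 101 and 158, and higher genes then made up 39.0% of those counted against 29.7%. The limit of 10 UMIs in each set leaves out more low genes where a set holds fewer UMIs, and no share of genes tested stands beside these counts. The cause of these shifts was not tested. Of 387 values of the named genes other than Retnla all kept their direction and 82 left the counting interval, and 19 had no value with no Dcn or Col1a2 UMI. These genes were chosen as the most extreme in these cells, and most alternatives reuse the cells. Their direction was thus partly fixed in advance, and no share over all genes was counted. Ear2 (0.80), Upb1 (0.91), Unc119 (0.98) and Coro2a (0.99) fell under 2-fold at matched depth and Prelid2 (0.32) with no Dcn or Col1a2 UMI. Mrc1 was past 2-fold in 9 of 14 alternatives. Among other genes, Mrc1, Il4ra, Cd74, Il1b, Lgmn, C3ar1 and Ccl24 changed sign with no Dcn or Col1a2 UMI, to 0.19, 0.09, -0.35, -0.32, 0.23, 0.16 and -1.68. At matched depth 14 of the 51 lower listed genes fell under 2-fold. Clec10a, Plac8, Ccl3, Osm, Cxcl16 and Id3 were at -0.74, -0.89, -0.83, -0.96, -0.80 and -0.82. The others were Mrc1 (-0.65), Aif1 (-0.96), Ninj1 (-0.74), C3ar1 (-0.96), Ms4a4c (-0.78), Ms4a6c (-0.56), Ifi204 (-0.68) and Ighm (-0.70). In alternatives chosen after seeing the data, Retnla was at 2.46 in cells without a Krt14, Krt5 or Krt17 UMI and at 2.31 in cells without a Mki67, Top2a, Birc5, Pclaf or Cdk1 UMI. A named gene needed only 10 UMIs in each set, and its counting interval carries that limit.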

Other observations

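Lyz1 was not limited to the gated cells on Day 14. Of the 1011 macrophages with Slamf7 and Il10, 116 (11.5%) had 2 or more Lyz1 UMIs, with up to 103 in a cell, and so had 26 of 552 resident-like cells (4.71%), 21 of 288 cells of the dendritic gate (7.29%) and 8 of 6475 fibroblasts (0.124%). Cells with 2 or more Slamf7 and Il10 UMIs that met the rest of the rule (103 cells) held 5128 CPM of Retnla and 2039 CPM of Lyz1. The 26 resident-like cells with 2 or more Lyz1 UMIs held 4095 and 1229 CPM, with no limit on Slamf7 and Il10 applied to them. Within the rule, the 87 Lyz1-positive cells with 1 Slamf7 or Il10 UMI held 9209 CPM of Retnla, against 11809 CPM over all 245.

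Over the 245 Lyz1-positive cells the shares of UMIs taken by Lyz1 and by Retnla had a Spearman's coefficient of 0.23, a description of cells of 1 library that share its depth.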
